A study of Mus musculus with 6 samples.

Results

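The white matter core spots are the spots of a spatial transcriptomics experiment in which transcripts of 5 genes of mature, myelinating oligodendrocytes were most concentrated. The 5 genes were Mobp, Ermn, Gjb1, Ppp1r14a and Adamts4. Mobp encodes a basic protein of the myelin sheath, Ermn a cytoskeletal protein of late oligodendrocytes and Gjb1 the gap junction protein connexin 32. Ppp1r14a encodes a regulator of myosin phosphatase and Adamts4 an extracellular protease that marks mature oligodendrocytes. In each section the spots with at least 500 UMIs (unique molecular identifiers, each standing for 1 captured probe pair) were kept, the level of each gene was divided by its mean over the section, and the 5 ratios were averaged into a score. The members were thus chosen by the measured levels of these 5 genes. The top 5% of spots of each section formed the core, which gave 1017 spots of 20336 over 6 sections and left 19319 other spots. Levels are in CPM, counts per 1000000 UMIs of the same spots. Since the 5 genes chose the spots, their levels and every difference between the core and the other spots are descriptions without a test, and the 5 genes were left out of the tests of age.

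The sections were coronal slices of formalin-fixed, paraffin-embedded brains of untreated male C57BL/6J mice, with no allele or agent added in any group. P21 stands for postnatal day 21, adult for 12 to 15 weeks and aged for 28 months, with 2 sections labelled as biological replicates at each age. By the labels the P21 mice were bred in-house, the adult mice came from the Jackson Laboratory and the aged mice from the National Institute on Aging, whereas the study's methods name the Jackson Laboratory as the one source. P21 and adult sections were mounted directly on Visium v1 slides, whereas the probes of the aged sections were moved from glass slides onto Visium v2 slides by the CytAssist instrument, so in aged vs adult the slide version and the age cannot be told apart. A Visium spot covers several cells and their processes. Fewer cells of a type and less RNA per cell therefore cannot be told apart in any value below.

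White matter tracts are bundles of axons that carry signals between brain regions, and oligodendrocytes wrap these axons in myelin, a multilayered membrane rich in cholesterol and galactolipids. Oligodendrocytes arise from precursors, pass through a short premyelinating stage, and in the mouse brain add most of their myelin in the weeks after birth. Cholesterol for myelin is made within the brain, since it does not cross the blood-brain barrier. In old mice, white matter is known as a place where microglia, the resident phagocytes, and fibrous astrocytes take up activated states.

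The core comprised 180 of 3598 and 166 of 3314 spots at P21, 146 of 2917 and 163 of 3259 in adult, and 184 of 3679 and 178 of 3569 in aged sections, and pairs of values are given in the order of sections 1 and 2 throughout. Although the rule did not use position, core spots lay together. Between 79.5% and 95.5% of the core spots of a section touched another core spot on the grid, where each spot has up to 6 neighbors. The largest connected group held 118 and 103 spots at P21, 52 and 39 in adult and 69 and 141 in aged sections. The adult cores were thinner bands: 50% and 44.8% of their spots had at least 3 core neighbors, against 66.7% and 59.0% at P21 and 59.2% and 71.3% in aged sections. Whether the sections were cut at the same level was not tested directly, and lists of regional neurons are given with the comparisons.

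**Figure D1:**
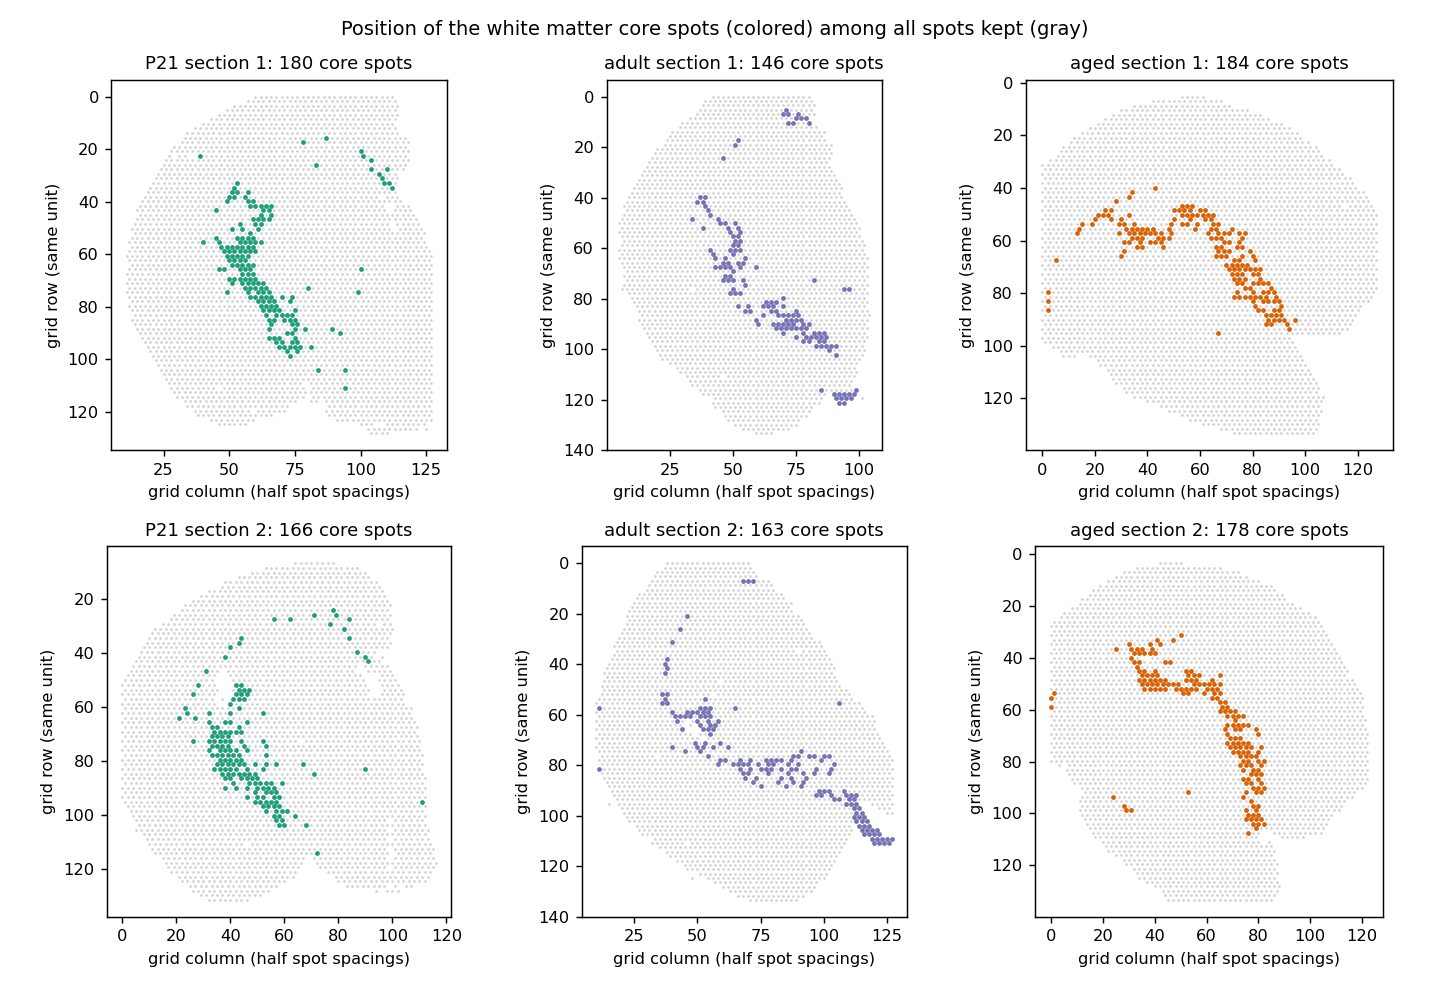
Position of the core spots (colored by age) among all spots kept (gray) in the 6 sections, with grid column and row as spot positions of the slide grid on the axes. Most core spots form connected bands, the largest of 141 spots in aged section 2, and 8 to 34 spots of a section stand alone.

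Summed over its core, a section gave between 1956363 and 4687493 UMIs. The median core spot held 25566 and 11760.5 UMIs at P21, 17602 and 14773 in adult and 10056 and 11764 in aged sections. In the other spots the medians were 23394 and 12105 at P21, 16628 and 14592 in adult and 20389 and 26497 in aged sections. Core and other spots were thus alike in depth at P21 and in adult, whereas aged core spots held less than other aged spots in both sections. The share of a section's UMIs in the core was 5.2% and 4.68% at P21, 4.98% and 4.85% in adult, and 2.39% and 2.16% in aged sections.

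Genes of myelin that the rule did not use were concentrated in the core as well. The 10 genes with the highest median ratio of core to other spots, the 5 score genes aside, included Nkx2-9, Klk6, Anln, Cldn11, Mog, Gsn, Nipal4, Mag and Sec14l5, with median log2 ratios over the 6 sections of 2.57 for Nkx2-9 down to 2.37 for Sec14l5, and each was above 0 in all 6 sections. Cldn11 encodes the tight junction claudin of compact myelin, Mog and Mag proteins of the outer and innermost layers of the sheath, and Gsn the actin-severing protein gelsolin. Cldn11 (chromosome 3, 31149920 to 31164324, plus strand, GRCm38) was at 779.9 and 738 CPM at P21, 248 and 212 CPM in adult and 164 and 159.8 CPM in aged sections in the other spots, below its core levels given with the comparison of P21 and adult. All 19 genes of the list of myelin sheath proteins, whose gene with the most UMIs was Mbp, were above the other spots in all 6 sections, with a median log2 ratio of 2.14. All 15 genes of galactolipid and very long chain fatty acid synthesis did the same, with a median of 1.32. Neuronal genes went the other way. Of the 14 genes of neuronal cell bodies and synapses 13 were below the other spots in every section, with a median log2 ratio of -0.90, and yet Snap25, a protein of synaptic vesicle fusion, was at 2210.5 and 1878 CPM in the adult cores and neuronal transcripts were part of every core.

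The score genes at the edge of the core were as follows. The score of the last spot inside and of the next spot outside was 2.99 and 2.99 in P21 section 1, 3.39 and 3.38 in adult section 1, and 4.74 and 4.73 in aged section 1. In the second sections the same scores were 3.25 and 3.25 at P21, 3.59 and 3.59 in adult and 4.54 and 4.53 in aged, so the top 5% closed at a higher score in aged sections. Averaged over single spots, Mobp was at 11489 CPM in the core and 2705 CPM in the other spots of P21 section 1, at 8181 and 1801 CPM in adult section 1, and at 13625 and 1767 CPM in aged section 1. Ermn, Gjb1, Ppp1r14a and Adamts4 were each detected in at least 87.0% of the core spots of every section.

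Down the ranking by score the gene groups fell off at different rates. The summed level of the myelin sheath proteins was 58522 and 68680.1 CPM in the top 1% of the adult spots and 6020.0 and 5349.8 CPM in the lower 50%. In aged sections it ran from 58796 and 59049.7 CPM to 3351 and 3659 CPM, a longer way down. Neuronal genes rose along the same ranking from 6368 and 4487 to 13814 and 13666 CPM in adult sections and from 2248 and 2065 to 14799 and 14456 CPM in aged sections. Within the core too, log2 levels of myelin and neuronal genes ran against each other over single spots, with Pearson's r between -0.81 in P21 section 2 and -0.49 in aged section 2 over 146 to 184 spots that share a section and a total.

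**Figure D2:**
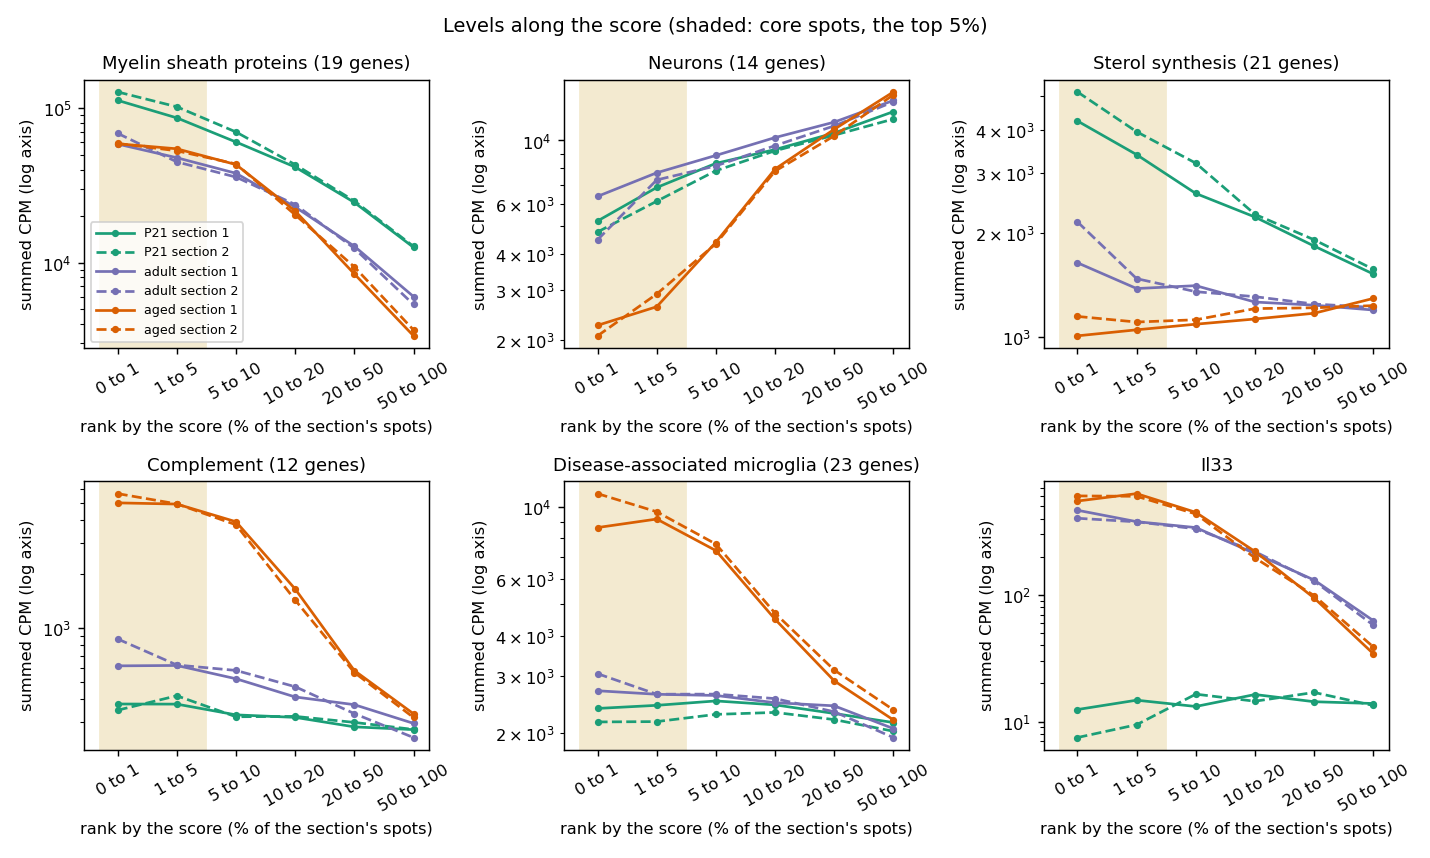
Summed level of 5 gene lists and of Il33 (CPM, log axis) against the rank of the spots by the score, with the core shaded, colors for ages and solid or dashed lines for sections 1 and 2. Myelin genes fall and neuronal genes rise away from the core at every age, sterol genes slope down at P21, and complement genes slope steeply down in aged sections.

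The comparison of P21 with adult asks what separates white matter in the period of active myelination from the mature tract. Genes were tested with edgeR's quasi-likelihood test on UMIs summed over the core of each section, with 2 sections per age, and are called higher or lower at an adjusted p under 0.05 with a change over 1.5-fold. Changes are log2 fold changes ± SE, and the library factors of the fit add 0.11 for P21 vs adult and 0.15 for aged vs adult to the ratio of the printed CPM. Of 11128 genes tested, 605 (5.44%) were higher at P21 and 477 (4.29%) were lower. A gene could pass the filter on low values through 1 of the 2 ages alone, so counts over the genes that passed are descriptions. Of the 11128 genes 10751 passed in the adult sections by themselves, with 5.25% higher and 4.30% lower. Scaled by library size alone the split turned to 437 higher and 687 lower. The labels call the sections biological replicates without naming the animals, and p-values measure the spread between these sections. Gene groups were lists of known markers and pathways, and the probes of different genes are not comparable in level. The lists were chosen with earlier results of these data known, so their counts against the share of all genes are descriptions.

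Genes of the myelin sheath stood higher at P21. Of the 19 tested, 14 were higher, against 5.44% of all genes tested, and 2 were lower, against 4.29%, with a median change of 0.87. Cldn11 was at 3419.9 and 3804 CPM at P21, 1206 and 1153 CPM in adult and 1861 and 1839 CPM in aged sections in the core. Its P21 sections lay far above both other ages without overlap, a change from adult of 1.72 ± 0.11 (adjusted p = 1.41e-11). Tspan2, a membrane protein of oligodendrocytes, changed by 1.55 ± 0.11, and Sirt2, the sirtuin deacetylase of myelin, by 1.96 ± 0.13. The 2 members that were lower at P21 were Cntn2, the axonal and glial adhesion protein of the juxtaparanode, at -0.95 ± 0.11, and Plekhb1, a membrane-bound protein of myelin, at -0.94 ± 0.11. Cntn2 was at 129 and 147 CPM at P21, 285 and 286 CPM in adult and 279 and 292 CPM in aged sections, so both P21 sections were below the other 4.

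Markers of newly formed oligodendrocytes were higher too. Of 10 tested genes, 9 were higher at P21, against 5.44% of all genes, and none was lower, with a median change of 1.70. Gpr17, a receptor found on premyelinating cells, was at 253 and 264 CPM at P21, 45.9 and 40.7 CPM in adult and 22.5 and 23.5 CPM in aged sections. Both P21 sections were well above the rest and the change was 2.68 ± 0.12 (adjusted p = 9.50e-15). Cnksr3, Kank1 and Rras2, a scaffold of kinase signaling, a regulator of actin and a small GTPase, changed by 2.67 ± 0.19, 2.25 ± 0.16 and 1.92 ± 0.17. Bcas1, the list's gene with the most UMIs in the adult and aged cores and a marker of early myelinating cells, did not pass the test, with 407 and 487 CPM at P21, 662 and 597 CPM in adult and 1219 and 894 CPM in aged sections.

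Transcription factors of the lineage were higher in part. 4 of 9 were higher at P21, against 5.44% of all genes, none was lower, and the median change was 0.58. Sox8 changed by 1.10 ± 0.11, Sox10 by 0.97 ± 0.12, Olig1 by 0.84 ± 0.10 and Tcf7l2, a Wnt pathway factor of maturing cells, by 0.97 ± 0.19. Tcf7l2 was the 1 member lower in the core than in the other spots at every age, at 35.0 and 44.3 CPM in the P21 cores and 71.8 and 84.0 CPM in the other P21 spots. Of 10 genes of oligodendrocyte precursors 3 were higher at P21, against 5.44% of all genes. They were Vcan, Lhfpl3 and Matn4, at 1.26 ± 0.15, 0.79 ± 0.12 and 0.79 ± 0.19, the call of Matn4 being lost without adult section 2, at 0.68. Proliferation genes were near the detection limit, with 2 of 10 tested and none called.

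Genes of cholesterol synthesis were higher at P21. Of the 21 tested genes of sterol synthesis and uptake, 17 were higher at P21, against 5.44% of all genes, and none was lower. The median change was 1.36 against 0.01 for all genes tested. Hmgcs1 (chromosome 13, 119690379 to 119708260, plus strand, GRCm38), the cytosolic HMG-CoA synthase, was at 919.7 and 1197 CPM at P21, 207 and 246 CPM in adult and 111 and 132 CPM in aged sections. The P21 sections lay far above the adult and the adult above the aged sections, with a change from adult of 2.33 ± 0.13 (adjusted p = 1.02e-12). Mvd, which makes isopentenyl diphosphate, changed by 2.07 ± 0.17 and Cyp51, the lanosterol demethylase, by 1.89 ± 0.12. The 4 members that were not called included Srebf2, the transcription factor of the pathway, at 161 and 158 CPM at P21, 168 and 161 CPM in adult and 115 and 136 CPM in aged sections, and Insig1, its retention factor, at 179 and 183 CPM at P21, 132 and 154 CPM in adult and 160.0 and 132 CPM in aged sections, where the ages lay close together.

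The promoter of Hmgcs1 is shown because this gene had the largest change of the list and was the one with a match to the letters searched for. Promoter windows came from RefSeq (GRCm38.p6), were matched by symbol for 15 of the 22 genes listed, and were searched over the 250 bases before the start site for TCACNCCAC, letters of the sterol regulatory element that SREBP factors bind, on both strands. Hmgcs1 was the 1 gene of the 15 with a match, and 331 of 27025 genes with a window (1.22%) had one. The match is a description of the sequence and not a measured binding site. The stretch is chr13:119690164-119690272 on the plus strand, with the match, 137 to 129 bases before the start site, in capitals.
Hmgcs1: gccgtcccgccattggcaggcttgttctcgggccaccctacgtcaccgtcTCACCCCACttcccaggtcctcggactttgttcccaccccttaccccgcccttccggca

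**Figure D3:**
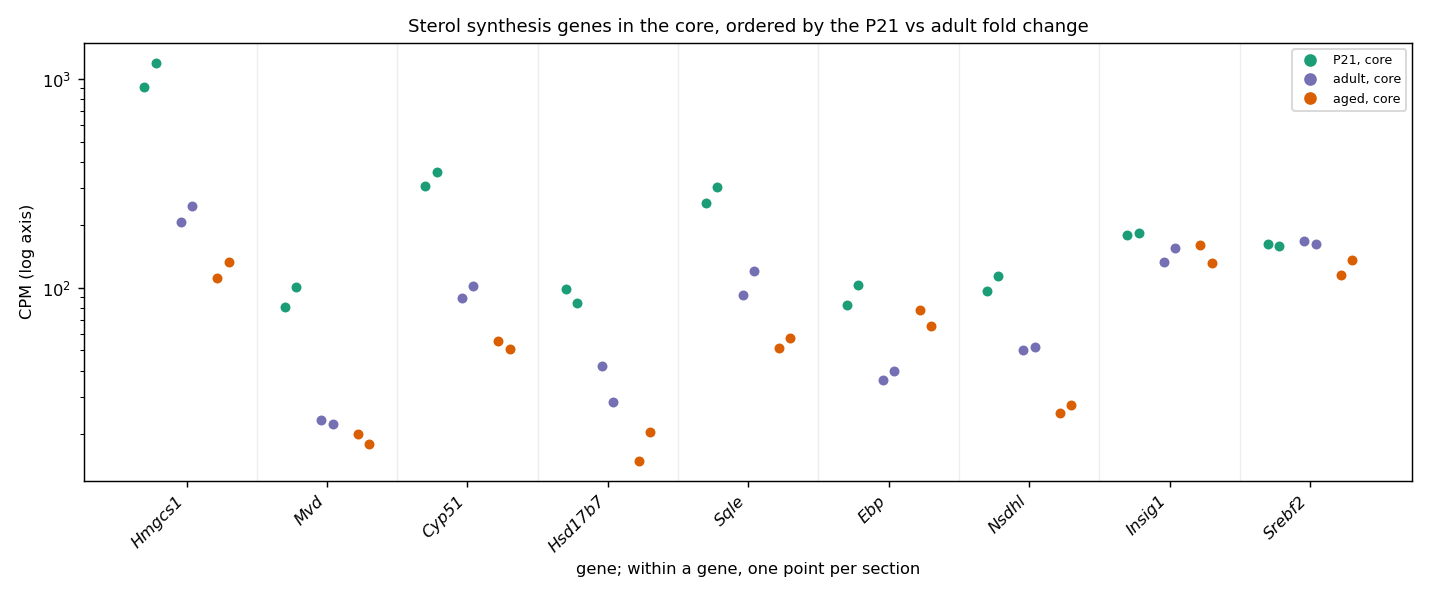
Level in the core (CPM, log axis) of the genes of sterol synthesis and uptake that are named here, 1 point per section, in the order of their change from adult to P21. Both P21 points lie above the adult points for the genes on the left, from Hmgcs1 (919.7 and 1197 CPM against 207 and 246 CPM), and the ages draw together for those on the right.

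Synthesis of the other myelin lipids moved the same way in part. Of 15 genes 7 were higher at P21, against 5.44% of all genes, with a median change of 0.51. They included Elovl1, an elongase of very long chain fatty acids, at 1.74 ± 0.11, and Ugt8a, which makes galactosylceramide, at 1.64 ± 0.12. Gal3st1, which sulfates galactosylceramide, was at 1.42 ± 0.11, and Cers2, a ceramide synthase, at 1.06 ± 0.11. Scd1, a desaturase, was lower at -1.04 ± 0.12. Axonal growth genes showed 3 higher of 13, against 5.44% of all genes. These were Marcksl1, Tubb2b and Dpysl3, at 2.11 ± 0.11, 0.85 ± 0.10 and 0.62 ± 0.14, and Dpysl3 lost its call without adult section 1, at 0.56. Among 13 genes of the node of Ranvier and its flanks 3 were higher and 1 lower, against 5.44% and 4.29% of all genes. Nfasc (neurofascin), Bcan and Ank3 were higher at 1.44 ± 0.11, 0.72 ± 0.10 and 0.70 ± 0.11. Hapln2, a hyaluronan link protein of central nodes, was lower at -1.06 ± 0.11. The neuronal list had none of 14 called and a summed level of 6508 and 5852 CPM at P21, 7460.3 and 6679 CPM in adult and 2543 and 2751 CPM in aged sections.

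Lists of regional neurons differed in part between the P21 and adult cores. Of 7 thalamic genes 3 were higher at P21, against 5.44% of all genes, Plekhg1 at 0.82 ± 0.11, Ramp3, which modifies calcitonin-family receptors, at 0.72 ± 0.16 and the kinase gene Prkcd at 0.67 ± 0.13. The list summed to 553 and 660.3 CPM at P21, 435 and 450.3 CPM in adult and 356 and 337 CPM in aged sections, with both P21 sections above the other 4. The calls of Ramp3 and Prkcd were lost without P21 section 2, at 0.50 and 0.47, and without adult section 1, at 0.64 and 0.47. In the core-by-age term, 3 of 7 thalamic genes were higher, against 1.39% of all genes, and 3 of 7 hypothalamic genes were lower, against 1.15%. These hypothalamic genes were Gpx3, Peg10 and Nnat, at -1.13, -1.02 and -0.81, with a list median of -0.58. Of 7 tested neuroblast genes 3 were higher at P21, against 5.44% of all genes. They were Sox4, Cd24a and Nrep, at 1.30 ± 0.21, 0.92 ± 0.31 and 0.75 ± 0.12. Cd24a lost its call without P21 section 1, at 0.45, and Cd24a and Nrep without adult section 2, at 0.56 and 0.57. In the core itself, 1 of 8 cortical genes was higher and 1 lower, and 1 of 6 striatal genes was higher, against 5.44% and 4.29% of all genes. Nothing is read from these single calls. None of 6 hippocampal and 7 hypothalamic genes was called there. The part of the regional makeup of the cores in the P21 results was not tested.

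Among called genes with at least 10 CPM and sections that did not overlap, the 10 largest positive changes included 3 hemoglobin genes, which were the 3 tested genes of the erythrocyte list, 2 of them passing the filter in the adult sections alone. Hbb-bt, Hbb-bs and Hba-a2, hemoglobin genes of near-identical copies whose probes may be shared, were higher at P21 by 3.08 ± 0.35, 3.0 ± 0.30 and 2.65 ± 0.28, and without P21 section 1 by 2.14, 2.25 and 1.81. Without adult section 1 Hbb-bs and Hba-a2 were at 3.91 and 3.35. Hbb-bs was higher in the other P21 spots, at 1511 and 903 CPM, than in the P21 cores, at 1348 and 564 CPM. Gsn was at 1177 and 1297 CPM at P21, 202 and 198 CPM in adult and 232 and 228 CPM in aged sections. The P21 cores were the highest by far and the adult and aged cores lay near each other, with a change from adult of 2.73 ± 0.11 (adjusted p = 1.53e-15). The other genes of this group were Bmf, a BH3-only cell death gene, at 2.74 ± 0.21, Parvb (parvin beta) at 2.39 ± 0.13, Arpc1b, a subunit of the actin-nucleating ARP2/3 complex, at 2.36 ± 0.13, Onecut2, a homeobox factor, at 2.34 ± 0.25, and Gpr17 and Cnksr3, named above.

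Il33 was among the genes that were lowest at P21 relative to adult. It encodes an alarmin of the interleukin 1 family that oligodendrocytes and astrocytes hold in the nucleus, and stood at 14.3 and 9.06 CPM at P21, 395 and 383 CPM in adult and 615 and 601 CPM in aged sections in the core. The P21 sections were lowest by far, the adult sections lay between and the aged sections were highest, with no overlap, and the change of P21 from adult was -4.85 ± 0.15 (adjusted p = 8.42e-18). In the other spots Il33 was at 14.3 and 14.8 CPM at P21, 114 and 113 CPM in adult and 77.5 and 75.9 CPM in aged sections. Ptgds, the prostaglandin D synthase of meninges and oligodendrocytes, was at 155 and 101 CPM at P21, 934 and 865 CPM in adult and 1491 and 1319 CPM in aged sections, again in the order of age, at -2.67 ± 0.14 from adult to P21 (adjusted p = 2.74e-13). The lipid transporter Abca8a, the choline dehydrogenase Chdh, the desaturase Scd3, the small GTPase Arl4d, Tmem144, Aebp1 and the protease Klk6 were lower at P21 by -3.43, -3.07, -2.80, -2.72, -2.54, -2.53 and -2.25 on the log2 scale, Scd3 by -3.42 without P21 section 1. Avp, vasopressin of hypothalamic neurons, had the most negative value, -5.68 ± 0.87, which rests on adult section 2, with 256 CPM against 16.5 CPM in adult section 1 and a change of -2.63 without it, while leaving out P21 or the other adult section moved it between -6.60 and -4.76.

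The list of oligodendrocyte junctions, ion and metabolite transport and iron moved in part. Of its 11 tested genes 3 were lower at P21 and 1 higher, against 4.29% and 5.44% of all genes, and 7 were not called. Car2, carbonic anhydrase II of oligodendrocytes, was at 481 and 569.7 CPM at P21, 1706 and 1935 CPM in adult and 2105 and 1891 CPM in aged sections, and both P21 sections were below the other 4 (-1.69 ± 0.12, adjusted p = 7.11e-11). Fth1, the ferritin heavy chain, was at 4763 and 5153 CPM at P21, 12279 and 13748 CPM in adult and 29209.8 and 26758 CPM in aged sections, with the 3 ages in separate ranges, and changed by -1.29 ± 0.13 from adult to P21. Pdk4, a kinase that restrains pyruvate dehydrogenase, was lower too, at -1.10 ± 0.29, a call lost without P21 section 1 or adult section 1 (-1.19 and -0.93), and the 11 genes of this list had a median of -0.14. Of 11 genes known from oligodendrocytes of aged or diseased white matter 5 were lower at P21 and 1 higher, against 4.29% and 5.44% of all genes. The lower ones were Il33, Klk6, the complement gene C4b, Anln and Sgk1, at -4.85, -2.25, -1.95, -1.49 and -0.60. Cdkn1a, a cell cycle inhibitor, was higher at 1.19 ± 0.24. The calls of Sgk1 and Cdkn1a were each lost without 1 adult section, at -0.50 without section 1 and 0.77 without section 2, and Cdkn1a was at 1.80 without section 1.

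Immune and astrocyte lists were mixed at P21. Of 15 lysosomal genes 3 were higher and 2 lower, against 5.44% and 4.29% of all genes, and of 14 interferon-induced genes 3 were higher and 2 lower. Of these 14, 9 passed the filter in the adult sections alone, with 1 higher and 2 lower. The higher interferon-induced genes numbered 0 without P21 section 1, 0 without adult section 2 and 1 without adult section 1, and the lower ones 4 without P21 section 1. None of 11 genes of homeostatic microglia was called. Of 16 genes of disease-associated microglia 6 were lower, against 4.29% of all genes, led by Gpnmb, Cd52, Tyrobp and Ctsz at -1.93, -1.05, -0.68 and -0.68. Fabp5, a fatty acid binding protein also made by neurons and oligodendrocytes, was higher at 0.70 ± 0.10. Of the 16, 14 passed the filter in the adult sections alone, with 1 higher and 4 lower. Gpnmb, with 9 and 3 UMIs in the P21 cores, was not among these 14. Of 8 reactive astrocyte genes 3 were lower, against 4.29% of all genes, Cd44, Gfap and Vim, at -0.93, -0.67 and -0.66. Of 7 complement genes 3 were lower, among them C4b and Cd59a at -1.95 and -0.88. Several of these calls rested on single sections. Without adult section 2 the lower genes numbered 1 of the microglial, 0 of the astrocyte and 1 of the complement genes. The values there were -1.11 for Gpnmb, -0.71 for Cd52, -0.38 for Tyrobp, -0.71 for Cd44, -0.51 for Gfap, -0.38 for Vim and -0.58 for Cd59a. Without P21 section 1 the lower genes numbered 2, 2 and 1 of the same lists, with Gpnmb at -2.14, Cd52 at -0.12, Tyrobp at -0.76, Gfap at -0.50 and Cd59a at -0.73. Without P21 section 2 Cd52 was at -1.85. The general astrocyte list had 1 of 12 lower and a median of 0.01.

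The core-by-age term asks whether P21 and adult differed by more in the core than in the other spots of the same sections. It was higher for 155 of 11163 genes (1.39%) and lower for 128 (1.15%), 283 in all and 166 without adult section 2. With library size alone, the split was 106 and 202. Of the sterol genes 13 of 21 were higher, against 1.39% of all genes, with a median of 0.71. In the other spots Hmgcs1 was at 329 and 367 CPM at P21, 176 and 174 CPM in adult and 143 and 157 CPM in aged sections, so the P21 sections were the highest there too, by less, and its core-by-age term was 1.30 ± 0.10 (adjusted p = 1.12e-08). Newly formed oligodendrocytes had 6 of 10 higher, with a median of 0.81. None of the 19 myelin sheath genes passed, with a median of 0.07. Among the 5 largest terms were those of Onecut2, Cnksr3, Tmem141 and Clgn, and the 5 most negative those of Aebp1, Il33, Scd3, Arl4d and Tmem144.

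When the core was set against spots ranked 5 to 20% instead, the closest neighbors of the core by score, 31 genes passed in place of 283, 24 higher (0.215%) and 7 lower (0.0627%), with 3 of 21 sterol genes among them and a median of 0.41. With libraries scaled to oligodendrocyte genes, a setting chosen after the data were seen, 1.47% of all genes were higher and 41.4% lower, with a median of -0.53. At P21 11 of 21 sterol genes and 8 of 19 myelin sheath genes were higher in the core. The scaling genes were the lists of myelin sheath proteins, lineage transcription factors and oligodendrocyte transport. Nothing is therefore read from the split of the myelin sheath genes under this scaling.

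The comparison of aged with adult asks how the tract differs late in life. Neuronal transcripts were scarcer in the aged cores: the 14 neuronal genes summed to 7460.3 and 6679 CPM in adult and 2543 and 2751 CPM in aged cores, although the other spots were alike, at 12489.7 and 12137 and 12864 and 12628 CPM. This difference, the lower UMIs per aged core spot and the slide version all moved with age, and their part in the results was not tested. Of 11025 genes tested in the core 1912 (17.3%) were higher and 1615 (14.6%) lower in aged. Scaled by library size alone, 1331 were higher and 2198 lower. Of the 11025 genes 10751 passed the filter in the adult sections by themselves, with 16.2% higher and 15.0% lower. The others passed with counts of the other ages, so a gene of low adult level could enter by being high in aged. The adult core was also set against aged spots ranked 10 to 20% by the score, a setting chosen after the data were seen. In those spots the lower score goes with lower levels of oligodendrocyte genes by construction, and genes that turn direction there are named with each group.

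Microglial genes were higher in the aged cores. Of 16 tested genes of disease-associated microglia 15 were higher, against 17.3% of all genes, and none was lower, with a median change of 2.40 against 0.05 for all genes. The whole list of 23 summed to 2426 and 2169 CPM at P21, 2648 and 2725 CPM in adult and 9066 and 9888 CPM in aged sections in the core, its gene with the most UMIs was Apoe, and no member was at 0 in aged cores. The 7 members that were not tested did not pass the filter, and 2 of the 16 did not pass in the adult sections alone, which leaves 13 higher of 14. Gpnmb, a glycoprotein of phagocytes, was at 1.92 and 1.51 CPM at P21, 4.21 and 10.9 CPM in adult and 102 and 144 CPM in aged sections. Both aged sections were far above the other 4 and the change from adult was 4.19 ± 0.24. Trem2, the lipid-sensing receptor of microglia, was at 12.8 and 15.6 CPM at P21, 20.7 and 26.2 CPM in adult and 191 and 181 CPM in aged sections, likewise without overlap, and changed by 3.14 ± 0.15 (adjusted p = 1.02e-14). Without adult section 2 Gpnmb was at 5.01. Gpnmb was 1 of the 2 that did not pass in the adult sections alone, with a UMI in 7.18% and 6.49% of the other adult spots. It passed with the aged sections, so its change is a description. Cd52 changed by 2.97 ± 0.22, Lgals3bp by 2.83 ± 0.27, Cd68, the lysosomal protein of phagocytes, by 2.58 ± 0.14 and Apoe, the lipid carrier of astrocytes and activated microglia, by 2.33 ± 0.11. Homeostatic microglial genes went the same way, with 8 of 11 higher and a median of 1.34, among them Tmem119 at 1.71 ± 0.24, Gpr34 at 1.70 ± 0.18 and Fcrls at 1.61 ± 0.30. Against the aged spots ranked 10 to 20% Gpr34 was at -0.072. Lysosomal genes had 11 of 15 higher, led by the cathepsin genes Ctsd, at 2.55 ± 0.11, and Ctss, at 2.22 ± 0.12, and a median of 0.88.

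Complement genes were higher in aged cores. All 7 tested were higher in aged, against 17.3% of all genes, with a median of 2.26. Of the 7, 1 did not pass the filter in the adult sections alone. C4b (chromosome 17, 34728380 to 34743882, minus strand, GRCm38), complement component 4, was at 26.2 and 16.6 CPM at P21, 86.1 and 103 CPM in adult and 2767 and 2632 CPM in aged sections in the core. The aged sections exceeded the adult and the adult the P21 sections, and the change from adult was 4.99 ± 0.14 (adjusted p = 1.06e-19). C4b has a near-identical copy, C4a, and probes may not separate them. In the other spots it was at 14 and 13.3 CPM at P21, 28.3 and 26.5 CPM in adult and 193 and 163 CPM in aged sections, and along the score it fell in aged section 1 from 2766 CPM in the top 1% of spots to 55.0 CPM in the lower 50%. The genes of the C1q complex, which microglia make, were higher too: C1qa was at 123 and 136 CPM at P21, 193 and 198 CPM in adult and 783 and 905 CPM in aged sections, with the aged sections apart from the rest, and changed by 2.26 ± 0.11, and C1qb changed by 2.49 ± 0.11. The receptor gene C3ar1 changed by 2.79 ± 0.23.

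Serpina3n, an acute-phase serine protease inhibitor of a multigene family, had the largest positive change among called genes with at least 10 CPM and no overlap between sections. At chromosome 12, 104406729 to 104414329, plus strand (GRCm38), it stood at 8.11 and 5.54 CPM at P21, 10.3 and 9.67 CPM in adult and 574 and 610.5 CPM in aged sections in the core. P21 and adult sections were alike at a low level and both aged sections were far above, at 6.03 ± 0.15 (adjusted p = 2.14e-20). It belongs to the list of genes tied to oligodendrocytes of aged or diseased white matter. Of this list 10 of 11 were higher in aged, against 17.3% of all genes, with a median of 2.35. Apod, apolipoprotein D and the list's gene with the most UMIs, was at 1479 and 1311 CPM at P21, 2229 and 2243 CPM in adult and 11131 and 11928 CPM in aged sections, with 3 separate ranges in the order of age, and changed by 2.52 ± 0.11 (adjusted p = 6.88e-15). Cdkn1a changed by 3.95 ± 0.19 (4.57 without adult section 1), Sgk1, a salt- and glucocorticoid-induced kinase, by 2.83 ± 0.11, Il33 by 0.79 ± 0.10 and Klk6 by 1.67 ± 0.14. In the aged spots ranked 10 to 20%, Il33 and Klk6 turned direction, at -0.96 and -0.84.

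**Figure D4:**
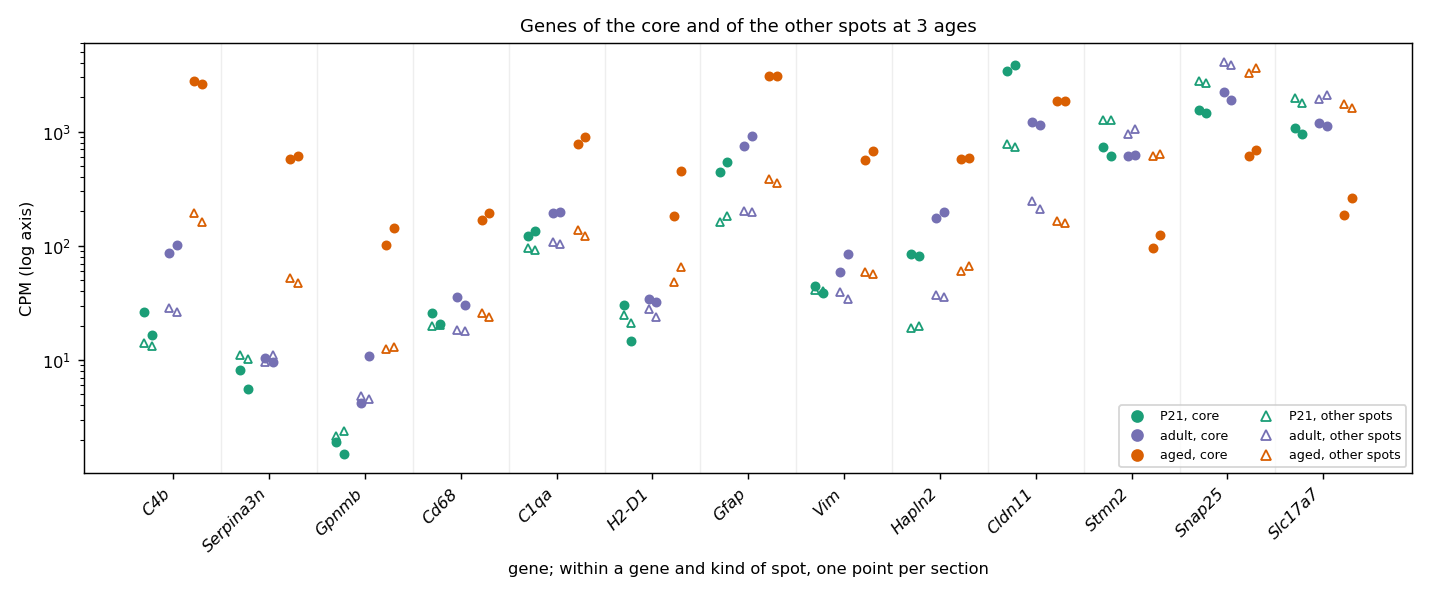
Level of 13 genes (CPM, log axis) in the core (filled circles) and in the other spots (open triangles) at the 3 ages, 1 point per section and kind of spot. C4b and Serpina3n are highest in the aged cores (C4b at 2767 and 2632 CPM), whereas Stmn2, Snap25 and Slc17a7 are lowest there.

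Astrocyte genes of the reactive and fibrous state rose too. All 8 tested were higher in aged, against 17.3% of all genes, with a median of 1.89. Of the 8, 1 did not pass the filter in the adult sections alone. Gfap, the astrocyte intermediate filament, was at 439 and 543 CPM at P21, 750.1 and 920.0 CPM in adult and 3079.7 and 3076 CPM in aged sections, with no overlap between ages, and changed by 2.03 ± 0.12 (adjusted p = 7.44e-13). Vim, another intermediate filament, was at 44.8 and 38.8 CPM at P21, 59.3 and 85.0 CPM in adult and 559.7 and 681 CPM in aged sections and changed by 3.26 ± 0.14, Osmr, the oncostatin M receptor, by 3.07 ± 0.27 and Cd44, the hyaluronan receptor, by 2.28 ± 0.17. Of the 12 general astrocyte markers 7 were higher, with smaller changes of 1.14 ± 0.13 for Sox9, 0.84 ± 0.12 for Fgfr3, 0.83 ± 0.15 for Aldh1l1 and 0.76 ± 0.13 for Aqp4, which was at -0.52 in the aged spots ranked 10 to 20%. With libraries scaled to oligodendrocyte genes, where 7.26% of all genes were higher and 31.0% lower, 1 of these 12 was higher, against 6 of 8 of the reactive list.

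Antigen presentation and interferon-induced genes were higher in aged as well. All 8 tested genes of MHC class I presentation were higher, against 17.3% of all genes, with a median of 1.83. Of the 8, 1 did not pass the filter in the adult sections alone. B2m, the light chain of class I molecules, was at 197 and 119.8 CPM at P21, 225 and 247 CPM in adult and 857 and 1225 CPM in aged sections. Both aged sections were above the others and section 2 was the higher of them, with a change of 2.29 ± 0.15. H2-D1 was at 34.4 and 32.2 CPM in adult and 182 and 451 CPM in aged cores, at 3.40 ± 0.27, and H2-K1 changed by 2.90 ± 0.25, though the H2 genes are near copies of each other and their probes may be shared. Without aged section 2 they were at 2.59 and 2.28. Of 14 tested interferon-induced genes 11 were higher, with a median of 1.30. Of the 14, 5 did not pass the filter in the adult sections alone, which leaves 6 higher of 9. The list was led by the GTPase genes Igtp at 2.26 ± 0.41 and Irgm1 at 1.84 ± 0.28, then Ifitm3 at 1.81 ± 0.21 and Oasl2 at 1.72 ± 0.47. Without aged section 2 the interferon list had 7 of its genes higher and Igtp was at 1.10. Without adult section 1 Igtp was at 3.04, and without adult section 2 Oasl2 lost its call at 1.41.

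Myelin sheath genes had a small median change in aged cores. Of 19 tested 5 were higher and 2 lower, against 17.3% and 14.6% of all genes, with a median of 0.17. The tetraspanin gene Cd9 was higher at 1.32 ± 0.11, the junction gene Jam3 at 1.03 ± 0.12, Tmem125 at 0.83 ± 0.13, Sirt2 at 0.82 ± 0.13 and Cldn11 at 0.80 ± 0.11. Opalin, a glycoprotein of the oligodendrocyte surface, was lower: it was at 723 and 883 CPM at P21, 682 and 592 CPM in adult and 193 and 269 CPM in aged sections, the aged sections lay below the other 4 and the change was -1.31 ± 0.13 (adjusted p = 9.34e-09). Pllp, plasmolipin, was lower at -0.59 ± 0.10, a call lost without adult section 2 at -0.54. Of 9 lineage transcription factors 3 were higher, against 17.3% of all genes, and none was lower. They were Nkx6-2, Tcf7l2 and Zfp536, a zinc finger factor, at 0.82 ± 0.11, 0.70 ± 0.21 and 0.61 ± 0.12. Of the early oligodendrocyte markers Itpr2, Bcas1 and Cnksr3 were higher, at 1.0 ± 0.18, 0.90 ± 0.13 and 0.72 ± 0.25, and Rras2 and Gpr17 lower, at -1.14 ± 0.26 and -0.76 ± 0.17. The calls of Tcf7l2 and Cnksr3 were lost without aged section 2, at 0.42 and 0.61, that of Tcf7l2 without adult section 1, at 0.70, and that of Cnksr3 without adult section 2, at 0.56. Zfp536 lost its call without aged section 2, at 0.47, and without P21 section 2, at 0.58. In the aged spots ranked 10 to 20% these genes turned direction, at -0.26 for Cd9, -0.40 for Jam3, -0.77 for Tmem125, -0.40 for Sirt2, -1.22 for Cldn11, -0.88 for Nkx6-2, -0.77 for Zfp536 and -0.51 for Bcas1.

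Metabolic genes of oligodendrocytes moved in both directions. Sterol genes were lower in part, 8 of 20, with 1 higher, against 14.6% and 17.3% of all genes, and a median of -0.50. Hsd17b7, Nsdhl and Sqle of the later steps were lower at -0.84 ± 0.22, -0.81 ± 0.17 and -0.81 ± 0.15, and Hmgcs1 at -0.74 ± 0.14, while Ebp, the sterol isomerase, was higher at 1.07 ± 0.16. Hsd17b7 lost its call without adult section 1, at -0.52. Of 15 genes of the other myelin lipids 2 were higher, against 17.3% of all genes, Cers2 at 1.45 ± 0.11 and Scd1 at 0.88 ± 0.11. Pdk4 was at 5.12 and 4.53 CPM at P21, 12.6 and 10.1 CPM in adult and 95.6 and 96.9 CPM in aged sections, with the aged sections far above the others, and changed by 3.22 ± 0.18 (adjusted p = 1.85e-13). Fth1 changed by 1.25 ± 0.12, the transferrin gene Trf by 0.94 ± 0.12 and the carbonic anhydrase gene Car14 by 1.13 ± 0.12. In the aged spots ranked 10 to 20% Cers2, Scd1, Fth1, Trf and Car14 turned direction, at -0.032, -0.067, -0.48, -0.96 and -0.16.

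Genes of neurons and axons were lower in aged cores. Of 14 neuronal genes 11 were lower, against 14.6% of all genes, with a median of -1.07. Slc17a7, the vesicular glutamate transporter of cortical neurons, was at 1076 and 946 CPM at P21, 1202 and 1131 CPM in adult and 187 and 261 CPM in aged sections in the core. The aged sections were below the other 4 and the change was -2.23 ± 0.12 (adjusted p = 1.70e-13), whereas in the other spots it was at 1922 and 2106 CPM in adult and 1762 and 1609 CPM in aged sections. Grin1, Slc12a5 and Snap25 changed by -1.71 ± 0.12, -1.54 ± 0.16 and -1.49 ± 0.11, and Gad1, which makes the transmitter GABA, was higher, at 0.89 ± 0.18, a call lost without aged section 1 at 0.57. Of the axonal list 6 of 13 were lower, led by Stmn2, a microtubule regulator, at -2.34 ± 0.13, Stmn3 at -1.21 ± 0.10, and the filament genes Ina and Nefm at -0.89 ± 0.14 and -0.88 ± 0.14. At the node, Hapln2 and the potassium channel gene Kcna1 were higher, at 1.79 ± 0.10 and 0.77 ± 0.14, and Cntnap1 and Scn8a lower, at -1.38 ± 0.14 and -1.32 ± 0.15, and Kcna1 lost its call without aged section 2, at 0.44. Cntnap2, an adhesion protein of the juxtaparanode, had no UMI in either aged core against 40 and 26 UMIs in the adult cores, at least 9.09-fold lower when 3 counts are taken as the floor of each library. It was also near 0 in the other aged spots, at 0.650 and 0.459 CPM against 21.0 and 24.9 CPM in adult sections. The study's methods describe an enhanced probe design for the aged libraries. Whether the Cntnap2 probes differed between the slide versions was not tested. Of regional neurons, 5 of 8 cortical and 4 of 7 hypothalamic genes were lower in aged cores, against 14.6% of all genes, and 1 hypothalamic gene was higher. The counts of 1 of 6 striatal, 1 of 6 hippocampal and 1 of 7 thalamic genes lower were near that share. The striatal genes numbered 5 without aged section 2, and in the aged spots ranked 10 to 20% all 6 striatal and all 7 thalamic genes were higher than in the adult core. Of 6 tested neuroblast genes 4 were lower and 1 higher. In the aged spots ranked 10 to 20% Slc12a5, Snap25, Stmn3, Ina, Nefm, Cntnap1 and Scn8a turned direction, at 0.12, 0.041, 0.25, 0.84, 0.92, 0.17 and 0.075.

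Among the called genes with at least 10 CPM and no overlap between sections, the largest positive changes after Serpina3n and C4b belonged to Maff, a small Maf factor, at 4.43 ± 0.41, Gpnmb, Cdkn1a, Hspa1b at 3.95 ± 0.58, Cebpd, a C/EBP factor, at 3.74 ± 0.18, Hif3a at 3.72 ± 0.27, H2-D1, and Cd74, the MHC class II invariant chain, at 3.40 ± 0.52. The heat shock gene Hspa1b, a near copy of Hspa1a, was at 323 and 33.9 CPM in the aged cores, and changed by 1.54 without aged section 1 and 4.81 without aged section 2. Cd74 changed by 0.93 without aged section 2 and 4.20 without aged section 1. The most negative changes, beside Cntnap2, were those of Avp, Ccn3, Nwd2, Slc30a3, Spin2c, Slc16a11, Gda, Myoc and Pde1b, from -3.76 ± 0.75 for Avp to -2.62 ± 0.19 for Pde1b. Avp lost its call without adult section 2, at -0.71, and was at -4.68 without the other adult section and -5.56 and -2.91 without each aged section. Ccn3, a matricellular protein, was at 77.7 and 92.6 CPM at P21, 78.8 and 101 CPM in adult and 7.16 and 8.69 CPM in aged sections, with both aged sections apart from the other 4 (-3.33 ± 0.22, adjusted p = 5.37e-12).

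**Figure D5:**
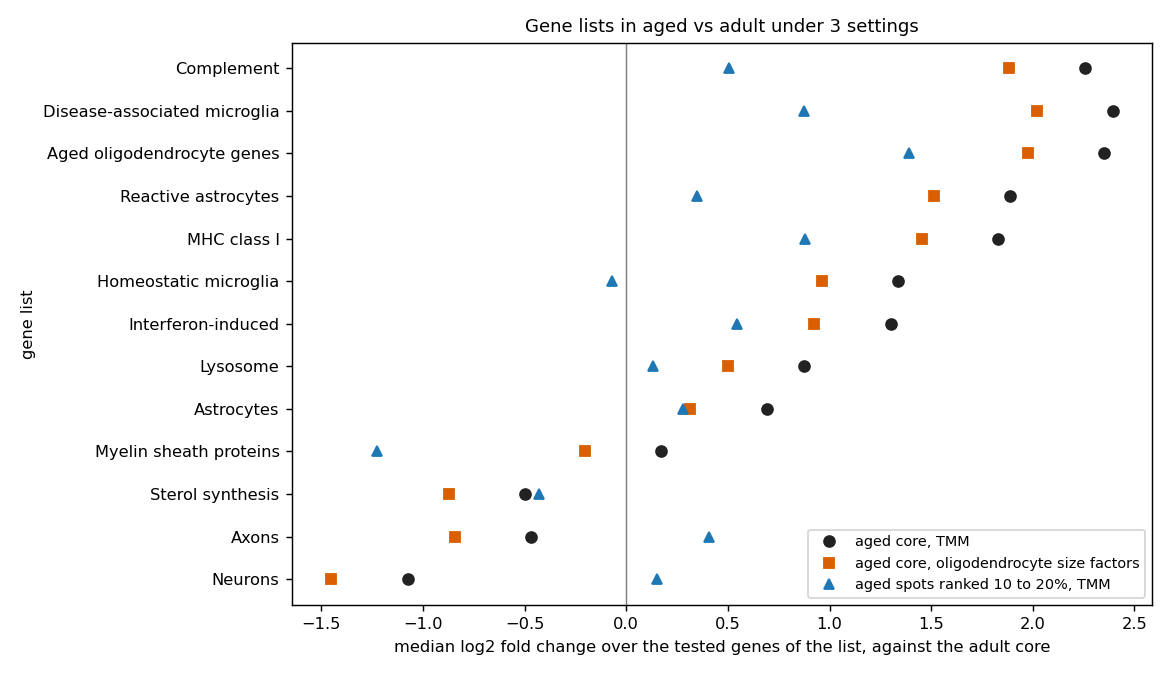
Median log2 change from the adult core over the tested genes of 13 lists, for the aged core with TMM scaling (circles), the aged core with oligodendrocyte size factors (squares) and aged spots ranked 10 to 20% in place of the aged core (triangles). The complement, disease-associated microglial and reactive astrocyte lists lie right of 0 under all 3, and the neuronal list moves from -1.07 in the aged core to 0.15 in the spots ranked 10 to 20%. The oligodendrocyte size factors use the myelin list itself, so its square is not a result.

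Against the aged spots ranked 10 to 20% by the score in place of the aged core, 10.5% of all genes were higher and 8.16% lower. The neuronal genes summed to 7942 and 7806 CPM, close to the 7460.3 and 6679 CPM of the adult cores, with 4 of 14 higher and 1 lower. Spots of a lower rank have a lower score of oligodendrocyte genes by construction, so nothing is read from the 16 of 19 myelin genes that were lower there, with a median of -1.23. Disease-associated microglial genes were higher in 11 of 16, with a median of 0.87, complement genes in 3 of 7 and MHC class I genes in 6 of 8, whereas homeostatic microglial genes had 3 of 11 lower and none higher.

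Set against the other spots of the same sections, the core-by-age term of aged vs adult was higher for 1380 of 11163 genes (12.4%) and lower for 1646 (14.7%), or for 1030 and 1988 with library size alone. It was higher for 15 of 16 genes of disease-associated microglia, 10 of 11 homeostatic, 6 of 7 complement and 8 of 8 reactive astrocyte genes, and for 16 of 19 myelin sheath genes, and it was lower for 12 of 14 neuronal and 7 of 21 sterol genes, 4 without aged section 1. The score that chose the spots is made of oligodendrocyte genes, and its 5 genes summed to 10.4 and 9.69 times the level of the other spots in aged and 4.67 and 4.70 times in adult cores, so nothing is read from the terms of myelin and neuronal genes. Opalin, lower in the aged than in the adult cores, was at 17.1 and 21.5 CPM in the other aged spots against 151 and 139 CPM in the other adult spots, and its term was 1.56 ± 0.12. Against spots ranked 5 to 20% the term was higher for 2.40% and lower for 8.28% of all genes, and higher for 12 of 16 disease-associated microglial, 5 of 7 complement, 1 of 8 reactive astrocyte and 1 of 19 myelin genes. The 5 largest positive terms against all other spots were those of Serpina3n, Cd74, Cebpd, Gpnmb and Vim, and the most negative those of Avp, Ccn3, Nwd2, Necab3 and Vip.

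Levels of gene groups were also compared between the inside of a band, core spots with at least 3 core neighbors, and its edge, the other core spots. The disease-associated microglial list was at 2430.3 CPM inside and 2416 CPM at the edge in P21 section 1 and at 2137 and 2218 CPM in P21 section 2. It was at 2716 CPM inside and 2584 CPM at the edge in adult section 1 and at 2869 and 2598 CPM in adult section 2. In aged section 1 it was at 9845 and 8016 CPM and in aged section 2 at 10909 and 7911 CPM, so the inside was the higher in the 4 adult and aged sections, while the P21 sections differed little and in opposite directions. Neuronal genes were at 6115 CPM inside and 7342 CPM at the edge in P21 section 1 and 4953 and 7218 CPM in P21 section 2. They were at 6732 CPM inside and 8161 CPM at the edge in adult section 1, 5710.2 and 7534 CPM in adult section 2, 1896 and 3417 CPM in aged section 1 and 2164 and 3887 CPM in aged section 2. They were the lower inside in all 6 sections. Whether this differed between the ages was not tested.

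Transcripts of lymphocytes were rare and are given as shares of spots. At least 1 UMI of Cd3d, Cd3e or Cd3g, chains of the T cell receptor complex, was found in 1 of 180 and 0 of 166 core spots at P21, and in 0 of 146 and 1 of 163 in adult sections. In aged cores it was found in 21 of 184 spots (11.4%, exact 95% binomial interval 7.21 to 16.9%) and 33 of 178 spots (18.5%, 13.1 to 25%). For the 2 cores with none, 3 counts over the number of spots give a limit of 1.81% in P21 section 2 and 2.05% in adult section 1, somewhat under the end of the exact interval for a count of 0. Limits and intervals cover counting error only. The other spots of the aged sections had a UMI of these genes in 2.63% and 5.99%, with more UMIs per spot than the core. Cd8a was found in 6 and 10 aged core spots and in none of the other 4 cores. For comparison, Ttr, a transcript of choroid plexus, was found in 69.0% and 63.5% of the aged core spots and in nearly all core spots of the younger sections. Cst7, a protease inhibitor of activated microglia, was found in 39.1% and 41.6% of aged core spots and in 1 to 5 spots of each younger core.

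Sections of one age differed from each other in a few gene groups. P21 section 1 stood apart in interferon-induced genes: Bst2 was at 64.9 and 14.1 CPM and Usp18 at 23.5 and 2.52 CPM in the P21 cores, whereas the adult cores were at 19.5 and 16.5 and 2.68 and 3.22 CPM. Oasl2, Rtp4 and Bst2 were called higher at P21 and Xaf1 and Ifi27 lower, of 14 tested, and without that section, as without adult section 2, no gene of the list was higher. Aged section 2 stood apart in antigen presentation: Cd74 was at 28.6 and 280.2 CPM and found in 25% and 83.2% of core spots, and MHC class II genes summed to 85.4 and 464 CPM in the aged and 49.4 and 49.5 CPM in the adult cores. The 2 tested genes of that list, Cd74 and H2-DMa, were both higher in aged, at 3.40 ± 0.52 and 0.84 ± 0.22, and H2-DMa lost its call without aged section 2, at 0.46.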

How the data were processed

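The authors aligned reads of the mouse probe panel to mm10 with Space Ranger and deposited UMI counts per gene and spot, raw and not normalized. The file headers name Space Ranger 2.0.0 for P21 and adult and 3.1.1 for aged sections, and the submitters' processing notes also list Space Ranger 2.1.0 and Seurat 5.1.0. All 6 sections and 19465 genes entered, with 11 symbols that are listed more than once kept by gene ID, and 1 to 4 spots of a section fell under the UMI minimum. The deposited tables of Moran's I, p-values and mean signal per gene are the authors' own results and were not used. Spot barcodes are shared by design within a slide version, 2612 to 2997 between v1 sections and 3364 between the aged sections, and mark positions.

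UMIs were summed per section over the core and over the other spots. Tests used edgeR 4.0.16 (R 4.3.3, TMM factors, glmQLFit, glmQLFTest, Benjamini-Hochberg adjustment) on 6 core sums by age, and on 12 sums with section and core-by-age terms. Tested genes passed filterByExpr and were found in over 10% of core spots at either age compared and at least 10% of all spots. SE is the absolute log2 fold change over the square root of F. The fits were tested on simulated data. Log2 levels of the 2 sections of an age correlated at r = 0.984, 0.983 and 0.976 over 11163 genes for P21, adult and aged, and no pair of sections had the same total. No doublet caller was run, since a spot holds several cells. Coordinates are GENCODE vM21 (GRCm38). The members and lists were chosen with earlier results of these data known. Genes named are up to 4 called members of a list per direction with its defining or most abundant gene, the 10 highest and lowest changes among called genes with at least 10 CPM and no overlap between sections, the 5 largest core-by-age terms per direction, and the 10 genes highest in the core; some genes so chosen are not reported here.

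Alternatives covered the top 2.5% and 10% of spots, a standardized log2 score, core spots with at least 3 core neighbors, 2000 UMIs, thinning, DESeq2 1.42.0, library size, filters, glmTreat, each section left out and a replicate block.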

Additional observations from a re-analysis of the deposited data

Results flagged for a closer look

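The genes below changed with age by a different amount in the core than in the other spots of the same sections, by edgeR's test of that difference. The values are differences of log2 fold changes, core minus other spots.

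Between P21 and adult the difference was 1.82 for Onecut2, 1.44 for Cnksr3, 1.39 for Tmem141 and 1.33 for Clgn, each higher at P21 by more in the core. Clgn, a chaperone gene, was at 52.3 and 60.4 CPM in the P21 and 19.5 and 18.5 CPM in the adult cores, and at 22.6 and 21.4 and 18.3 and 18.0 CPM in the other spots. In the other direction it was -1.95 for Aebp1, -1.89 for Il33, -1.88 for Scd3, -1.82 for Arl4d and -1.58 for Tmem144. Il33 was lower at P21 in both kinds of spots, and adjusted p-values of these 9 genes ran from 3.72e-08 for Il33 to 0.0017 for Aebp1. Aebp1 lost its call without P21 section 1, at -1.45, and without adult section 2, at -1.33.

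Between aged and adult the difference was 3.73 for Serpina3n, 2.87 for Cd74, 2.73 for Cebpd, 2.70 for Gpnmb and 2.56 for Vim. Gpnmb passed the filter with the aged sections and not in the adult sections alone, so its value is a description. Serpina3n was at 9.56 and 11.2 CPM in the other adult and 52.0 and 47.7 CPM in the other aged spots, so it was higher in aged in both kinds of spots. Single sections moved some of these values without ending a call: Cd74 was at 1.42 without aged section 2 and 3.47 without aged section 1, and Gpnmb at 2.12 and 3.58 without adult section 1 or 2. The difference was -4.48 for Avp, -3.17 for Ccn3, -2.93 for Nwd2, -2.78 for Necab3 and -2.62 for Vip, the peptide gene of a class of cortical interneurons. The score genes stood further above the other spots in aged than in adult cores. Nothing is therefore read from the terms of neuronal genes, such as Avp and Vip. Ccn3 was at 107 and 126 CPM in the other adult and 104 and 97.7 CPM in the other aged spots, with both aged sections below the adult ones. Nwd2 was at -3.52 and -2.29 without aged section 1 or 2, and Vip at -3.43 without aged section 2. The value for Avp rests on single sections and lost its call without aged section 1, at -0.80, with -5.40 without adult section 2. It stood at 16.5 and 256 CPM in the adult cores, 16.4 and 2.61 CPM in the aged cores and 204 and 2.16 CPM in the other aged spots.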

How the results depend on the processing

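The counts of called genes were 1082 for P21 vs adult and 3527 for aged vs adult in the core, and 283 and 3026 for the core-by-age terms. A fold of 1.5 built into the test (glmTreat) left 314, 1691, 19 and 1407, and DESeq2 called 690 for P21 vs adult in the core. Without the filter on low counts 5576 genes were called in aged vs adult. Against spots ranked 5 to 20% the core-by-age terms gave 31 and 1192. Of the settings chosen after the data were seen, oligodendrocyte size factors gave 4770 for P21 vs adult, 164 higher and 4606 lower with the median of all genes at -0.53, and 4218 for aged vs adult, 800 higher and 3418 lower with the median at -0.32. The aged spots ranked 10 to 20%, also chosen after the data were seen, gave 2058 against the adult core. The causes were not tested, other than that glmTreat asks more of each gene and unfiltered tables test more genes. The other settings kept these counts within 1.5 times. Leaving out 1 section gave 817 to 1130, 3174 to 3514, 166 to 304 and 2570 to 3028, with 166 without adult section 2.

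Replicate numbers did not pair the sections, since same-numbered sections had deviations from their age means that correlated at r = -0.0024 for P21 and adult and -0.084 for aged and adult, and a fit with the replicate number as a block called 1077 and 3508 genes. Scaled by library size, the median shift of 0.11 and 0.15 moved the split of calls as given with each comparison.

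Over 181 pairs of a named gene and a comparison and 3666 values under other settings, 3431 were on the same side of the thresholds, 210 lost the call and 25 changed sign. The sign changes all came under 1 setting, aged spots ranked 10 to 20%, which was chosen after the data were seen, and the cause was not tested. There these genes were lower than in the adult core on the log2 scale: Aqp4 -0.52, Bcas1 -0.51, Car14 -0.16, Cd9 -0.26, Cers2 -0.032, Cldn11 -1.22, Fth1 -0.48, Gpr34 -0.072, Il33 -0.96, Jam3 -0.40, Klk6 -0.84, Nkx6-2 -0.88, Scd1 -0.067, Sirt2 -0.40, Tm4sf1 -0.21, Tmem125 -0.77, Trf -0.96, Zfp536 -0.77. These were higher: Cntnap1 0.17, Ina 0.84, Nefm 0.92, Scn8a 0.075, Slc12a5 0.12, Snap25 0.041, Stmn3 0.25. Limits of depth were set by the core sums, the lowest of 1956363 UMIs in aged section 1, and by 2 sections per age.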

Other observations

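Cell types at the borders of white matter were followed by their own lists. Ependymal cells line the ventricles, and the 3 tested of 8 ependymal genes were all higher in aged cores, against 17.3% of all genes, and 1 of the 3 did not pass the filter in the adult sections alone. Foxj1, the factor of motile cilia, was at 23.3 and 21.1 CPM at P21, 14.5 and 12.9 CPM in adult and 35.8 and 46.5 CPM in aged sections (1.74 ± 0.21 from adult to aged, adjusted p = 1.75e-07), with both aged sections above the other 4, and Rarres2 and Tm4sf1 changed by 1.13 ± 0.24 and 0.70 ± 0.19. Tm4sf1 lost its call without adult section 1, at 0.53, and without aged section 2, at 0.35, and was at -0.21 in the aged spots ranked 10 to 20%. The part of ependymal genes in the other aged results was not tested. Choroid plexus genes, whose most abundant gene was Ttr, summed to 3424 and 1442 CPM at P21, 3602 and 2554 CPM in adult and 1754 and 5083 CPM in aged sections, with sections of one age far apart and none of the 2 tested genes called in either core comparison.

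Of 10 tested genes of vessels 3 were higher and 4 lower in aged cores, against 17.3% and 14.6% of all genes. Flt1, a receptor of vascular growth factors on endothelium, was at 40.1 and 32.2 CPM at P21, 39.8 and 40.3 CPM in adult and 94.6 and 89.1 CPM in aged sections, highest in both aged sections (1.34 ± 0.15, adjusted p = 3.99e-08). Cldn5, the claudin of the blood-brain barrier, was at 101 and 102 CPM at P21, 74.6 and 86.6 CPM in adult and 44.0 and 39.1 CPM in aged sections, lowest in both aged sections (-0.81 ± 0.14, adjusted p = 5.04e-05), and in the other spots it was at 72.8 and 65.3 CPM in adult and 30.4 and 27.5 CPM in aged sections. The whole list summed to 459.5 and 431 CPM at P21, 463 and 551 CPM in adult and 491 and 418 CPM in aged sections, and without aged section 1 the higher genes numbered 1, without adult section 2 the lower genes 2. Immediate early genes, which respond to activity and handling within minutes, had 5 of 8 higher in aged cores, against 17.3% of all genes, and 3 without aged section 2, with Fos at 4.48 and 2.01 CPM at P21, 9.57 and 2.82 CPM in adult and 26.6 and 23.5 CPM in aged sections and 41.3 and 39.1 CPM in the other aged spots.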
